A study of Rattus norvegicus with 18 samples.

Results

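Brain cortex of rats with middle cerebral artery occlusion (MCAO) treated with erythropoietin (EPO) was compared with brain cortex of rats with the same operation treated with saline, 6 h after the occlusion. MCAO closes the artery that feeds the lateral cortex and striatum and is a standard rodent model of ischemic stroke. The comparison takes 6 of the series' 18 arrays, chosen by their labelled group: 3 from ischemic rats treated with EPO and 3 from ischemic rats treated with saline. All 6 came from male Crl:CD(SD)BR rats of 250 to 280 g, and all 6 carried the occlusion. Sham-operated rats at 6 h, labelled as untreated, and the sham, saline and EPO groups at 2 h, each with 3 arrays and the same strain, sex and weight range, served as reference points. The dose and route of EPO, its time relative to the occlusion, whether the occlusion was lasting or transient, and the part of the cortex taken are not given in the sources used here. The labels number 3 samples in each group without saying that each number is a separate animal, so p-values measure the spread between these samples.

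Erythropoietin is the hormone that drives red cell production, and it acts through its receptor Epor, the kinase Jak2 and transcription factors of the STAT family. The receptor is also made by neurons, glia and endothelium, and EPO has been studied as a neuroprotective agent in stroke. Ischemic and depolarised neurons switch on immediate-early genes, which encode transcription factors such as the EGR and FOS families, and then activity-regulated effectors such as Arc and Bdnf that shape synapses and support survival.

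Values are log2 signals of single probes minus the array's 75th percentile, so 0 is the 75th percentile and differences are log2 differences. The brightest tested probe stood for each gene, levels are not compared between genes, and SE and p come from 1 limma fit to all 18 arrays. Between 61.5% and 76.2% of probes were well above background on these 6 arrays. Each array has a spike-in slope, that of the line of signal on amount fitted by the extraction software to added control RNAs. Slopes above 0.9 formed a steep class (saline arrays 1 and 3 and EPO array 3). The others formed a shallow class (saline array 2 and EPO arrays 1 and 2). Arrays with the same number lay on the same slide: number 1 on slide 2, number 2 on slide 3 and number 3 on slide 5, which was scanned on the second of 2 days. Slides 3 and 5 each paired arrays of 1 slope class, whereas slide 2 paired a steep saline array (0.914) with a shallow EPO array (0.863). When genes were split into 5 equal groups by mean level, the median EPO minus saline difference in the dimmest group was 1.39 on slide 2, -0.08 on slide 3 and 0.06 on slide 5, and in the brightest group it was -0.15, -0.01 and 0.02. The difference on slide 2 thus varied with brightness, and dim genes are read below from slides 3 and 5 as well. Neuronal, astrocyte and oligodendrocyte marker lists were well above background on all 6 arrays, with mean list levels of 3.62 to 3.72, 2.66 to 2.77 and 3.32 to 3.57.

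**Figure D1:**
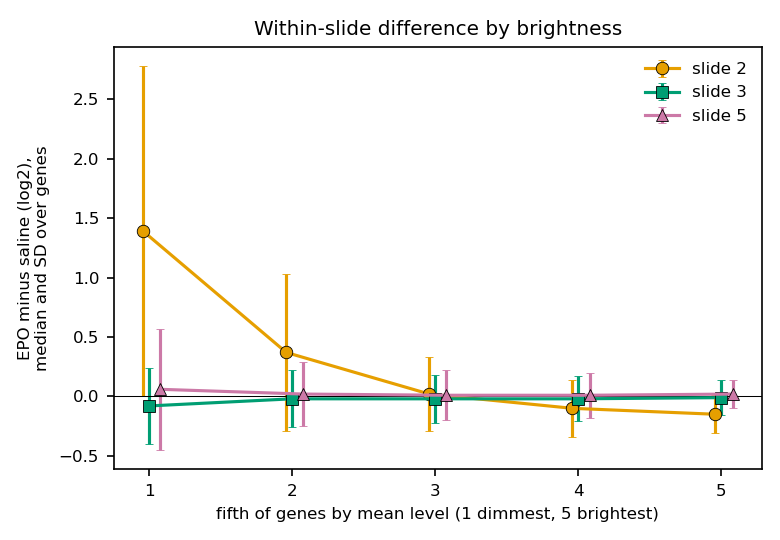
EPO minus saline (log2) within each slide, as the median over genes (bars, SD over genes), for 5 equal groups of genes from dimmest (1) to brightest (5). Slide 2, whose arrays differ in slope class, runs from 1.39 in the dimmest to -0.15 in the brightest group, and slides 3 and 5 lie between -0.08 and 0.06.

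The question was which transcripts differed between EPO and saline in ischemic cortex at 6 h. No gene passed: of 28634 probes tested, 0 had a Benjamini-Hochberg adjusted p under 0.05 in limma (0% called), and the smallest adjusted p was 0.777. At an unadjusted p under 0.05 there were 1197 probes, 675 higher and 522 lower with EPO, and the split depended on scaling: 461 were higher and 794 lower after quantile normalization, and 766 higher and 407 lower when the percentile was taken over the tested probes. Over the 12430 genes, 2.24% had an unadjusted p under 0.05 with a higher value in EPO and 1.92% with a lower value. All 3 EPO arrays lay above all 3 saline arrays for 3.95% of genes and below them for 4.9%, and EPO was higher on all 3 slides for 12.9% and lower on all 3 for 11.2%. The 1197 probes became 367 without the pair on slide 2 and ranged from 563 (without saline array 1, and also without EPO array 1) to 3548 (without EPO array 3) when 1 array was left out. The difference was positive for 6787 of the 12430 genes, and for 6200 without the pair on slide 2. The counts of single groups below are read against these values. The median difference was 0.02 over genes, and the median SE over probes was 0.13.

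The named genes with the smallest p values and no overlap between groups were, on the higher side, Fosl2, Mas1, Mustn1, Egr1, Bdnf, Egr4, Actn3, Sik1, Arhgap45, Hectd2, Spry2 and Angptl4. None of them passed the test, each with an adjusted p of 0.777. Fosl2, Egr1 and Egr4 are immediate-early transcription factors, Bdnf is a neurotrophin, Sik1 is a kinase that restrains cAMP-driven transcription, and Spry2 is an inhibitor of growth factor receptor signalling that is induced by that signalling. Mas1 is the receptor for angiotensin-(1-7), Angptl4 is a secreted inhibitor of lipoprotein lipase that hypoxia induces, and Actn3 is a sarcomeric actinin.

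Most immediate-early transcription factors had higher values with EPO. Of 27 members measured, 25 had a positive difference, 12 had an unadjusted p under 0.05 in the higher direction and 0 in the lower, and 11 had all EPO arrays above all saline arrays. Over all genes, 6787 of 12430 had a positive difference, 2.24% had such a p in the higher direction and 3.95% had EPO arrays all above. This list too was chosen with earlier results of these data known, so its counts are not independent evidence. The list median was 0.38, beside 0.02 over all genes, and none of the 27 passed the adjusted threshold. Without the pair on slide 2, 6 of the 27 (22.2%) had an unadjusted p under 0.05 in the higher direction, beside 0.716% of all genes, and the median was 0.22. The 2 members without a positive difference were Jund (-0.13 ± 0.11 SE) and Atf3 (0.00 ± 0.37 SE).

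Egr1, a zinc finger factor that neuronal activity switches on within minutes, stood at 3.39, 3.49 and 3.84 on saline arrays 1 to 3 and at 4.33, 3.96 and 4.34 on EPO arrays 1 to 3. The groups did not overlap. The difference was 0.64 ± 0.14 (SE, n = 3 per group; 1.55-fold; adjusted p = 0.777, limma), and it was 0.94, 0.46 and 0.51 on slides 2, 3 and 5. Egr4, of the same family, stood at 4.28, 4.26 and 4.93 in saline and at 5.39, 5.49 and 5.24 with EPO. Its groups were also apart, with the third saline array the closest to the EPO arrays and a difference of 0.89 ± 0.21. Egr2 stood at 0.44, 0.60 and 0.89 in saline and at 1.82, 1.71 and 1.53 with EPO, a difference of 1.04 ± 0.30 (2.06-fold). Every EPO array exceeded every saline array by a wide margin for Egr2, and the within-slide differences were 1.38, 1.11 and 0.64.

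Fosl2, a partner of Jun proteins in the AP-1 factor, had the smallest p of these genes (0.000148 unadjusted). It stood at -2.53, -2.35 and -2.01 in saline and at -1.28, -1.54 and -1.39 with EPO, 0.89 ± 0.17 higher (1.86-fold). The groups were apart, and the slides gave 1.26, 0.81 and 0.62. Junb, another AP-1 subunit, stood at 1.01, 1.23 and 1.62 in saline and at 2.44, 1.76 and 2.09 with EPO, a difference of 0.81 ± 0.22. Fos itself was less separated: 1.65, 2.23 and 2.45 in saline and 3.06, 2.42 and 2.77 with EPO, 0.64 ± 0.31, where EPO array 2 fell below saline array 3. Srf, the factor that binds serum response elements, was apart between groups, with a smaller difference of 0.23 ± 0.07. Its other probes gave 0.09 ± 0.11, 0.31 ± 0.12 and, for a dim one with a saline mean of -4.49, 0.57 ± 0.15.

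Among orphan nuclear receptors of the NR4A family, Nr4a3 stood at 0.28, 0.22 and 0.63 in saline and at 0.96, 1.05 and 1.15 with EPO. That is 0.67 ± 0.19 higher, with no overlap, and its 2 other probes gave 0.72 and, for a dim one with a saline mean of -3.34, 0.43. Nr4a1 was 0.76 ± 0.24 higher, but EPO array 2 lay within the saline range of 3.72 to 4.15. Npas4, a neuron-restricted activity factor, overlapped in part, at -2.65, -1.28 and -1.46 in saline and -1.10, -2.10 and -0.80 with EPO (0.46 ± 0.50), and its direction turned to -0.08 without the pair of arrays on slide 2.

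**Figure D2:**
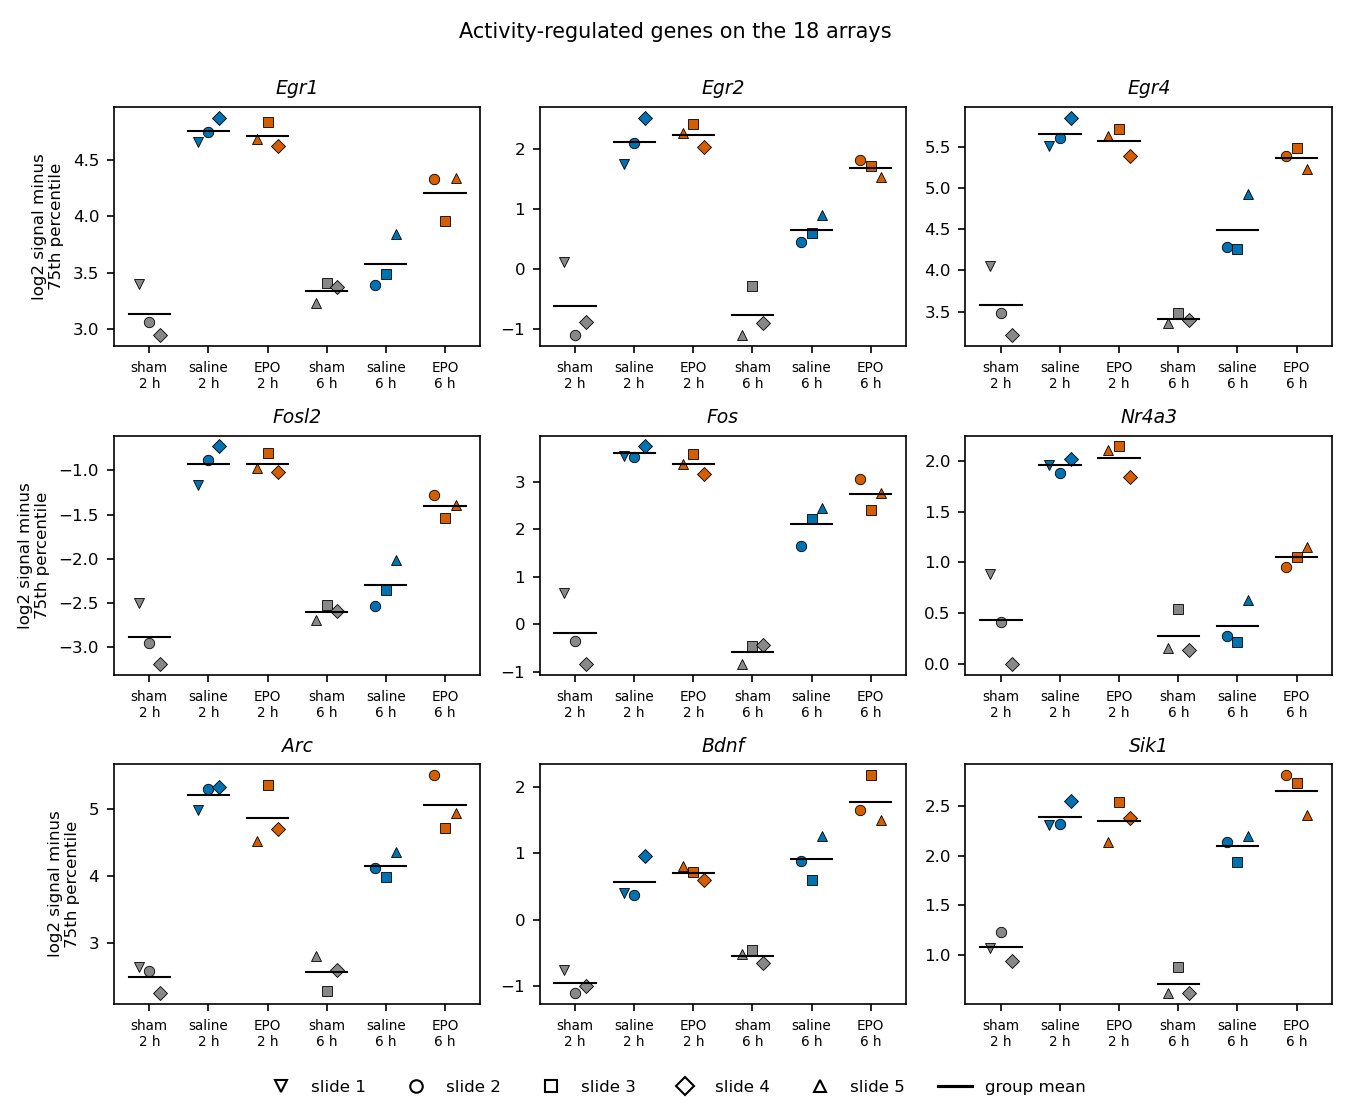
Log2 signal minus the array's 75th percentile for 9 activity-regulated genes on all 18 arrays, by group and time; points are arrays, shapes are slides, lines are group means. At 6 h the EPO arrays lie above the saline arrays for every gene drawn but Fos, and at 2 h the saline and EPO arrays overlap.

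Activity-regulated plasticity genes gave a like picture. These 39 measured genes were listed in part from what is remembered of the paper on these rats, so their direction is not independent evidence. Of the 39, 36 had a positive difference, 19 had an unadjusted p under 0.05 in the higher direction and 0 in the lower, 18 had all EPO arrays above all saline arrays, and the median was 0.32. Without the pair on slide 2 there were 9 (23.1%), with a median of 0.22, and 6 genes stand on both lists. Arc, which trims AMPA receptors at active synapses, stood at 4.12, 3.99 and 4.36 in saline and at 5.51, 4.72 and 4.94 with EPO, 0.90 ± 0.24 higher (1.86-fold). All EPO arrays were above all saline arrays, and the slides gave 1.39, 0.72 and 0.57.

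Bdnf, which supports neuronal survival through the receptor Ntrk2, stood at 0.88, 0.59 and 1.25 in saline and at 1.65, 2.17 and 1.49 with EPO. The groups were apart, with the saline and EPO arrays of slide 5 the closest (0.25) and those of slide 3 the farthest apart (1.58). The difference was 0.87 ± 0.20 (1.82-fold), and a second Bdnf probe gave 1.06 ± 0.24. Sik1 stood at 2.14, 1.94 and 2.20 in saline and at 2.81, 2.73 and 2.41 with EPO (0.56 ± 0.13). Dusp5, a nuclear phosphatase of ERK induced by ERK signalling, stood at 1.28, 1.49 and 1.97 in saline and at 3.02, 2.32 and 2.55 with EPO, 1.05 ± 0.28 higher. Nptx2, a secreted pentraxin that clusters AMPA receptors, stood at 4.45, 3.98 and 4.84 in saline and at 5.11, 5.45 and 4.94 with EPO (0.74 ± 0.24), and Gadd45g was 0.52 ± 0.17 higher, again with no overlap. The pair on slide 5 gave the smallest list medians: the median of the plasticity list was 0.55 on slide 2, 0.37 on slide 3 and 0.07 on slide 5, and that of the immediate-early list 0.68, 0.30 and 0.23.

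The promoter windows of 4 genes from these lists are printed as examples of windows that hold motifs of serum response factor or CREB. They come from RefSeq (build GRCr8) and run from 250 bases before to 50 bases after the gene's start, 5′ to 3′ on the gene's strand. Capitals mark serum response elements (SRE) and the CRE core TGACG, which reads CGTCA on the other strand. Egr2 lies at chr20:21054392-21054691, minus strand, Egr4 at chr4:119607768-119608067, minus strand, Dusp5 at chr1:262543524-262543823, plus strand, and Sik1 at chr20:9958597-9958896, minus strand.
Egr2: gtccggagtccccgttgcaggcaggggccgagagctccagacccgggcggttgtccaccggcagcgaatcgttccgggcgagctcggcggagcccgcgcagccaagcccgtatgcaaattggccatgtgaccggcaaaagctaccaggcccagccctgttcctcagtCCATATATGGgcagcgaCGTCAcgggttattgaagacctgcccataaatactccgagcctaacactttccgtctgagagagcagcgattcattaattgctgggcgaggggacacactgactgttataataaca
Egr4: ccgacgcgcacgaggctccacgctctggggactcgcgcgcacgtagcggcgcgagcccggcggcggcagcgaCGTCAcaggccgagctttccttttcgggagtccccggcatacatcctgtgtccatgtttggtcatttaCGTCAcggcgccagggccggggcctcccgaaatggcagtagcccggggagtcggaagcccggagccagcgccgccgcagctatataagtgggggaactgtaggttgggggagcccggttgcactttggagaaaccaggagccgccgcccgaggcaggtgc
Dusp5: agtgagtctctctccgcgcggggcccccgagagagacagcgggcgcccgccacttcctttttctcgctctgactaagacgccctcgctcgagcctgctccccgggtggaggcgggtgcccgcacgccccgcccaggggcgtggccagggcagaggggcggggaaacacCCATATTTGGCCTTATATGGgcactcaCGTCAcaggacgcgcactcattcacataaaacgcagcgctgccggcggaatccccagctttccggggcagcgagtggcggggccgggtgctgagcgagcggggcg
Sik1: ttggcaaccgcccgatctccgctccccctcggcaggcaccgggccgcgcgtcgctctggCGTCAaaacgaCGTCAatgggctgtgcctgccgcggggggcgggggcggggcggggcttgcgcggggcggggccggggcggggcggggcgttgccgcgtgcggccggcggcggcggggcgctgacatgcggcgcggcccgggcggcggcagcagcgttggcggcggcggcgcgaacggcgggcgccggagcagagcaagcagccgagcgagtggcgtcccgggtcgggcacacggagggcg

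The Egr2 window holds 1 SRE and 1 CRE core, the Egr4 window 2 CRE cores, the Dusp5 window 2 adjoining SREs and 1 CRE core, and the Sik1 window 2 CRE cores. The Egr1 window holds 2 SREs and 2 CRE cores, and the windows of Fosl2, Bdnf and Mas1 hold neither. Of the 27 immediate-early genes, 18 matched a RefSeq window, and 5 of these 18 (27.8%) hold an SRE and 12 (66.7%) a CRE core. Over all 27457 windows the shares are 1.64% and 22%, and over the 10079 windows of genes tested here they are 1.18% and 29.9%. The full CRE TGACGTCA, which holds the core counted above, is held by 4 of the 18 and by 1.91% of all windows (2.92% of those of genes tested), and an EGR motif (GCGGGGGCG or GCGTGGGCG) by 6 of the 18 and 3.31% (5.99%). The STAT motif TTCNNNGAA is held by 4 of the 18 and 8.68% of all windows (6.78%), the HRE ACGTG by 4 and 19.7% (24.3%), and the AP-1 motif TGAGTCA, the NBRE AAAGGTCA and the NF-kB motif by 0 of the 18 and by 4.53%, 1.29% and 0.0947% of all. Of the 12 genes named above as higher with EPO, 11 matched a window, and 1 of these held an SRE and 5 (45.5%) a CRE core. Of the 12 named below as lower, 11 matched, with 0 and 4 (36.4%). Both strands were searched, and a match is a stretch of letters, not a site shown to be bound. The part of these motifs in the EPO difference was not tested.

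Beside sham at 6 h, many of these genes were already higher in ischemia with saline, and the 3 groups share arrays, so the values are only set side by side. Over all genes, 7.08% rose and 4.47% fell with saline against sham (adjusted p under 0.05, limma), and 9% rose and 8.39% fell with EPO against sham. Of the 27 immediate-early factors, 17 rose with saline and 23 with EPO, and of the 39 plasticity genes 20 and 28. Arc rose by 1.60 with saline and 2.49 with EPO, Bdnf by 1.45 and 2.31, Egr2 by 1.41 and 2.45, and Sik1 by 1.39 and 1.94. Egr1, Fosl2 and Nr4a3 passed against sham with EPO (0.87, 1.20 and 0.77) and did not pass with saline (0.23, 0.30 and 0.10). That split is not a test of EPO against saline, in which each had an adjusted p of 0.777 (limma).

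At 2 h the values of the same genes lay on both sides of 0. The list medians of EPO minus saline at 2 h were -0.05 for immediate-early factors and -0.04 for plasticity genes. Egr1 differed by -0.04 at 2 h, Fosl2 by 0.00, Egr4 by -0.08, Sik1 by -0.04 and Arc by -0.34, while Bdnf and Egr2 differed by 0.12 each, Irs2 by 0.18 and Nptx2 by 0.24. Nptx2 stood at 3.09, 3.38 and 3.48 in saline at 2 h and at 3.65, 3.52 and 3.51 with EPO, so its EPO arrays were all above its saline arrays at that time too. The test of the difference between times, as the interaction of EPO with time, called no probe (0% of 28634, smallest adjusted p 0.917, limma), with 668 probes at an unadjusted p under 0.05. Among the immediate-early factors 9 had an unadjusted interaction p under 0.05 in the direction of a larger value at 6 h and 0 in the other, and among the plasticity genes 14 and 0. Over all 12430 genes, 135 and 162 had such a p in these directions. The 5 genes of smallest interaction p in each direction included Fosl2 (0.90 ± 0.24), Mas1 (0.91 ± 0.25), Arhgap45 and Sox2 on the higher side, the last with EPO below saline at 2 h (-0.31), and Cluap1, Sephs2, Cdh7, Rfc3 and Gpsm2 on the lower side. All had an adjusted p of 0.917.

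The genes that ischemia had already raised at 2 h were also examined as 1 group. Their 2 h levels come from other arrays, but the p-values at both times use the same estimate of each gene's spread, so genes called at 2 h tend to have a small spread and their share at a small p at 6 h is not independent of the choice. The medians within slides do not use that estimate. Against sham at 2 h, 177 genes were higher with saline at an adjusted p under 0.05 and 27 were lower. Of the 177, 48 (27.1%) had an unadjusted p under 0.05 with a higher value in EPO at 6 h and 1 with a lower value, and 52 (29.4%) had all EPO arrays above all saline arrays. Among the 12226 genes not called at 2 h the shares were 1.89% and 3.58%, with 231 genes higher. EPO was higher on all 3 slides for 42.9% of the 177 and for 12.5% of the genes not called. The median difference of the 177 genes was 0.12, and it was 0.19, 0.11 and 0.08 on slides 2, 3 and 5, beside 0.02, -0.03 and 0.02 for the genes not called. Of the 27 genes lower at 2 h, 0 were higher and 3 were lower at an unadjusted p under 0.05 in limma, with a median of -0.06.

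Beyond the genes above, the 52 held Cebpd, a stress-induced transcription factor (0.46 ± 0.12), Pde4d, a cAMP phosphodiesterase (0.45 ± 0.12), Irs2, an adaptor of insulin receptors (0.44 ± 0.12), Peli1, a ubiquitin ligase of innate immune signalling (0.42 ± 0.11), and Rem2, a small GTPase that limits calcium channels (0.79 ± 0.23). They also held genes of inflammation and matrix: Ptgs2, the inducible cyclooxygenase (0.56 ± 0.24), Ccl2, a monocyte chemokine (0.38 ± 0.35), Cd14 (0.38 ± 0.18) and Timp1 (0.36 ± 0.19). Other inflammatory genes of the 177 lay outside the 52, among them Il1a (0.11 ± 0.31), Il1b (0.04 ± 0.29), Ccl4 (-0.08 ± 0.32), Ccl3 (-0.22 ± 0.36) and Cxcl1 (-0.25 ± 0.33). In the other direction, Cxcl2, a neutrophil chemokine raised 6.49 over sham by saline, stood at 0.69, 0.80 and 0.96 in saline and at 0.43, 0.14 and 0.03 with EPO. Its EPO arrays were all below its saline arrays, with a difference of -0.62 ± 0.32 (unadjusted p = 0.0787, limma). Leaving out the pair on slide 2 left 23 of the 177 (13%) at an unadjusted p under 0.05 in the higher direction, beside 0.716% of all genes. Without slide 3 there were 33 (18.6%, beside 2.49%), and without slide 5 there were 48 (27.1%, beside 3.79%).

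**Figure D3:**
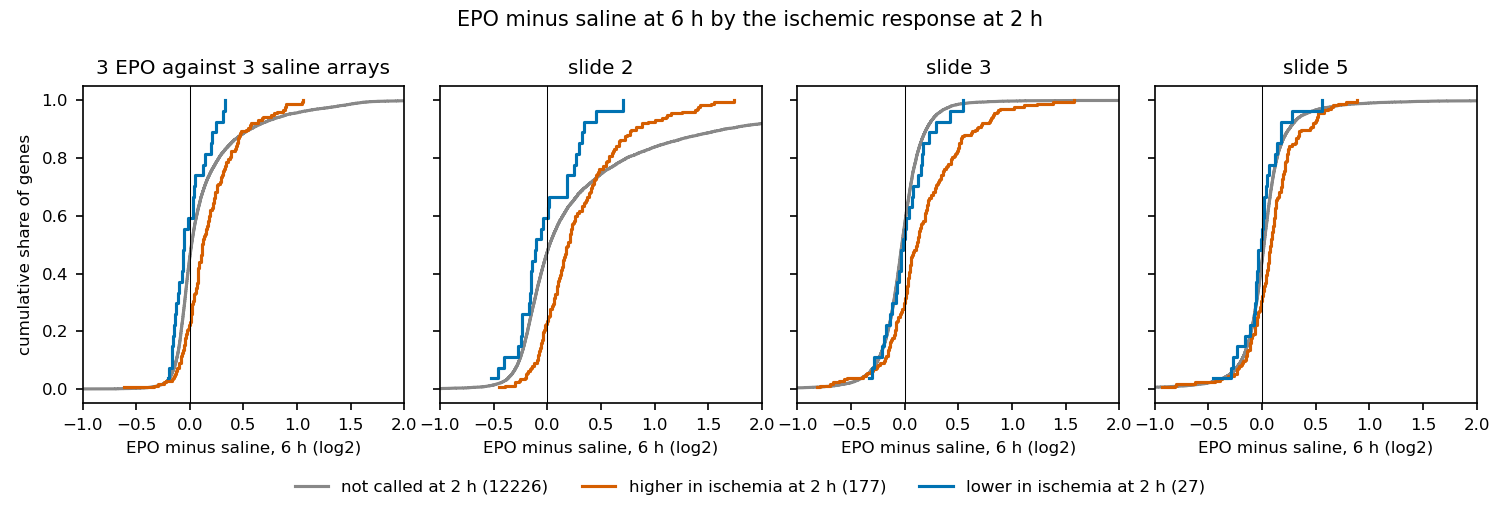
Cumulative share of genes by EPO minus saline at 6 h (log2), for genes higher (177), lower (27) or not called (12226) in ischemia against sham at 2 h; the first panel uses all 6 arrays and the others 1 slide each. At the medians the curve of the 177 genes lies to the right of the genes not called in every panel, at 0.12 over all arrays and at 0.19, 0.11 and 0.08 on the slides.

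Of the EPO receptor and its pathway, 22 genes were measured, with a median of 0.14, 17 positive differences, 3 at an unadjusted p under 0.05 in the higher direction and 0 in the lower. The median was 0.24, 0.12 and -0.04 on slides 2, 3 and 5, and without the pair on slide 2 it was 0.03, with 14 positive and 1 at that p. The receptor Epor was dim, at -4.22, -3.60 and -4.02 in saline and -2.98, -3.59 and -3.91 with EPO. Only the slide 2 pair differed by more than 0.11 (1.24 there), the pair in which dim genes as a whole were higher with EPO, and the difference of 0.45 ± 0.34 turned to -0.05 after quantile normalization. Jak2 differed by 0.14 ± 0.11 and Stat5a by 0.08 ± 0.12. Irs2 stood at 2.04, 1.90 and 2.16 in saline and at 2.45, 2.69 and 2.28 with EPO. Its 3 other probes gave 0.68, 0.52 and 0.88, but they were dim, with saline means of -2.75, -4.04 and -4.79. Dim genes as a whole were higher with EPO on slide 2. Socs3, a feedback inhibitor of JAK-STAT signalling, stood at -1.84, -1.70 and -1.40 in saline and at -0.93, -1.10 and -1.33 with EPO (0.53 ± 0.22), with no overlap but only 0.07 between the arrays of slide 5. Socs2, a dim gene, differed by 0.50 ± 0.22 with overlap (1.20, 0.34 and -0.04 on slides 2, 3 and 5), and by 0.15 without the pair on slide 2. The probe for Epo itself was well above background on 1 of the 6 arrays and was not tested, nor was that for Hspa1b, above background on 2.

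Growth factors and their receptors had a median of 0.22 over 29 genes, with 4 at an unadjusted p under 0.05 in the higher direction, 0 in the lower and 7 with EPO arrays all above. Besides Bdnf, these 4 were Vegfa, the main angiogenic factor (0.26 ± 0.10), its receptor Kdr (0.36 ± 0.15) and Angpt2, which loosens vessel walls (0.31 ± 0.14). Vegfa stood at -0.46, -0.29 and -0.17 in saline and at -0.05, -0.09 and 0.00 with EPO, and its second probe gave 0.19. The list median was 0.29 on slide 2, 0.06 on slide 3 and 0.02 on slide 5, and 0.03 without slide 2.

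Endothelial markers were measured beside these genes. Of 17, 13 had a positive difference, 4 had EPO arrays all above and 1 (Kdr) had an unadjusted p under 0.05. Without the pair on slide 2, or that on slide 3, 0 of the 17 had such a p in limma. The median was 0.19 (0.28, 0.27 and 0.06 on slides 2, 3 and 5), and the mean level of the list was -1.14, -1.09 and -0.98 in saline and -0.83, -0.85 and -0.96 with EPO. Vwf, the endothelial clotting factor carrier, was 0.31 ± 0.15 higher. Mural cell markers had a median of 0.13 (10 genes) and meningeal and fibroblast markers 0.21 (10 genes; Col3a1 0.33 ± 0.16, Lum 0.23 ± 0.13). In bulk tissue, more cells of a type and more RNA per cell cannot be told apart, and the part of these cells in the vascular values was not tested.

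Red cell genes were higher in all 8 members measured, with a median of 0.70 and medians of 1.20, 0.03 and 0.43 on slides 2, 3 and 5. Alas2, the first enzyme of heme synthesis in red cell precursors, stood at 0.30, 0.78 and 0.90 in saline and at 1.05, 1.22 and 1.33 with EPO (0.54 ± 0.21). Hbb, a globin chain, stood at -1.16, -0.61 and -0.78 in saline and at -0.51, -0.26 and -0.23 with EPO (0.52 ± 0.21), and Slc4a1, the red cell anion exchanger and a dim gene, was 0.87 ± 0.35 higher (1.59, 0.64 and 0.39 on slides 2, 3 and 5), and 0.52 without the pair on slide 2. All 3 had EPO arrays above saline arrays and an unadjusted p under 0.05, and the other 5 overlapped. Without the pair on slide 2 the list median was 0.31 and 0 of the 8 had an unadjusted p under 0.05 in limma. Lymphocyte and muscle markers were higher mainly on slide 2, where their medians were 2.81 and 1.37, beside 0.08 and 0.05 on slide 3 and 0.19 and 0.00 on slide 5, and 4 of 8 and 4 of 6 of their genes were above background on all 6 arrays.

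Choroid plexus markers differed between single arrays rather than between groups. Ttr, the main secreted protein of that tissue, stood at -2.30, 4.37 and 4.03 in saline and at 2.91, 2.84 and -2.06 with EPO, so 1 array of each group was low. The list median was 2.32, -1.10 and -2.06 on slides 2, 3 and 5. The part of choroid plexus tissue in other genes was not tested. The low EPO array is the one on slide 5, where the activity lists had their smallest medians, and the low saline array is the one on slide 2, where they had their largest.

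Inflammatory gene lists differed among themselves. Cytokines and chemokines had a median of 0.09 over 29 genes, with 17 positive, 0 at an unadjusted p under 0.05 in either direction in limma, and slide medians of 0.55, -0.06 and -0.26. Without the pair on slide 2 the median was -0.13, with 10 positive. Il1b, an early cytokine of macrophages and microglia, stood at -0.75, -0.24 and -0.28 in saline and at -0.15, -0.42 and -0.60 with EPO (0.04 ± 0.29), with partial overlap. Il1rn, its secreted antagonist, differed by -0.32 ± 0.15, and Il18 and Cxcr4 by 0.30 ± 0.14 and 0.33 ± 0.16. A second Cxcr4 probe of like brightness gave -0.09 ± 0.17, and a second Il18 probe 0.38 ± 0.20. The second Il1rn probe, not above background on every array, gave 1.54 ± 1.23. NF-kB response genes had a median of 0.16 over 19 genes (0.33, 0.13 and -0.05 on slides 2, 3 and 5), 17 of them positive. Without the pair on slide 2 the median was 0.06, with 13 positive. With all 6 arrays, 2 had an unadjusted p under 0.05 in the higher direction: Ptgs2 and Nfkbiz, a nuclear co-regulator of NF-kB (0.57 ± 0.18, 0.73, 1.02 and -0.04 on slides 2, 3 and 5). Interferon response genes had a median of 0.02 over 22 genes, with Rsad2 at 0.31 ± 0.12. Matrix and plasminogen genes had a median of 0.12 over 25 genes (0.43, 0.09 and -0.08 on slides 2, 3 and 5), with 21 positive and 0 at an unadjusted p under 0.05 in limma. Spp1, or osteopontin, stood at -0.10, 1.81 and 3.62 in saline and 2.66, 3.16 and 3.36 with EPO, a saline spread wider than its difference of 1.28 ± 0.68.

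Markers of microglia and macrophages had a median of -0.06 over 16 genes (-0.20, -0.03 and 0.10 on slides 2, 3 and 5). Of the 16, 7 were positive. Cd68 was the 1 member at an unadjusted p under 0.05 in limma (0.22 ± 0.09, no overlap). Without the pair on slide 5, 0 of the 16 were higher and 4 lower at that p, beside 471 and 564 of 12430 genes. Neutrophil markers had a median of -0.02 over 7. Astrocyte markers had a median of -0.06 over 13 genes. Gfap, the astrocyte filament gene, stood at 2.10, 2.41 and 2.65 in saline and at 2.75, 2.82 and 2.48 with EPO, an overlapping difference of 0.30 ± 0.19. Oligodendrocyte markers had a median of 0.01 over 13.

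Heat shock, unfolded protein, antioxidant and HIF lists had medians from -0.04 to 0.02. Heat shock genes, 13 of 18 of which rose over sham in either ischemic group, had a median of -0.04 between EPO and saline, with 0 genes at an unadjusted p under 0.05 in limma. Hspa1a, an inducible heat shock protein that rose by 6.74 over sham with saline and 6.64 with EPO, stood at 6.03, 6.07 and 6.08 in saline and at 5.93, 5.70 and 6.24 with EPO (-0.10 ± 0.17). Near-identical Hspa1a and Hspa1b transcripts may share a probe's signal. The unfolded protein and integrated stress response list had a median of 0.00 over 19 genes, antioxidant and iron genes 0.00 over 28 and HIF targets 0.02 over 29. In the HIF list Hk2, a hexokinase, was 0.69 ± 0.31 higher, mostly on slide 2 (1.67, beside 0.25 and 0.15), and Ankrd37 differed by -0.19 ± 0.07. Glucocorticoid response genes had a median of 0.17 over 17 genes, 3 of them at an unadjusted p under 0.05 (Per1 0.40 ± 0.13, Errfi1 0.24 ± 0.09, Dusp1 0.31 ± 0.14), all of which are also activity-regulated or growth factor-induced. Its median was 0.18, 0.19 and -0.02 on slides 2, 3 and 5, and without the pair on slide 3 it was 0.01, with 1 gene higher and 2 lower at that p. The 18 clock genes had a median of 0.14 with 15 positive, which became 0.04 with 10 positive without the pair on slide 2. Of these genes, Nfil3 (0.44 ± 0.14) and Per1 were higher and Bmal1, the partner of CLOCK, was at -0.24 ± 0.09. Cholesterol genes had a median of 0.02 over 21.

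On the lower side the genes of smallest p with no overlap were Cluap1, Vps37a, Sesn1, Sephs2, Ssbp3, Golph3l, Rlig1, Fam53a, Bbs4, Fam118a, Nog and Rnf24, each with an adjusted p of 0.777. Their differences ran from -0.21 (Fam118a) to -0.55 (Rnf24), beside 0.25 (Arhgap45) to 0.89 (Fosl2) for the genes named on the higher side. Cluap1, a protein of the ciliary transport complex, stood at 1.88, 1.97 and 1.94 in saline and at 1.60, 1.59 and 1.70 with EPO (-0.30 ± 0.07), and Bbs4, of the ciliary BBSome, was at -0.28 ± 0.08. Sesn1, a p53 target that restrains mTORC1, stood at 1.56, 1.44 and 1.33 in saline and at 1.02, 1.08 and 1.16 with EPO (-0.35 ± 0.09), and it was -0.23 against sham with saline and -0.59 with EPO. It was the 1 member of 29 apoptosis and p53 genes with an unadjusted p under 0.05, and that list's median was 0.03. Sephs2, which makes selenophosphate for selenoproteins, stood at 1.03, 1.01 and 1.03 in saline and at 0.61, 0.88 and 0.81 with EPO (-0.25 ± 0.06). Nog, the secreted BMP antagonist noggin, was at -0.29 ± 0.09, but its second probe gave 0.10 ± 0.10. Second probes of Vps37a (-0.10), Golph3l (0.00) and Fam53a (-0.16 and 0.01) likewise differed less than the brightest one, and that of Fam118a gave -0.17.

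**Figure D4:**
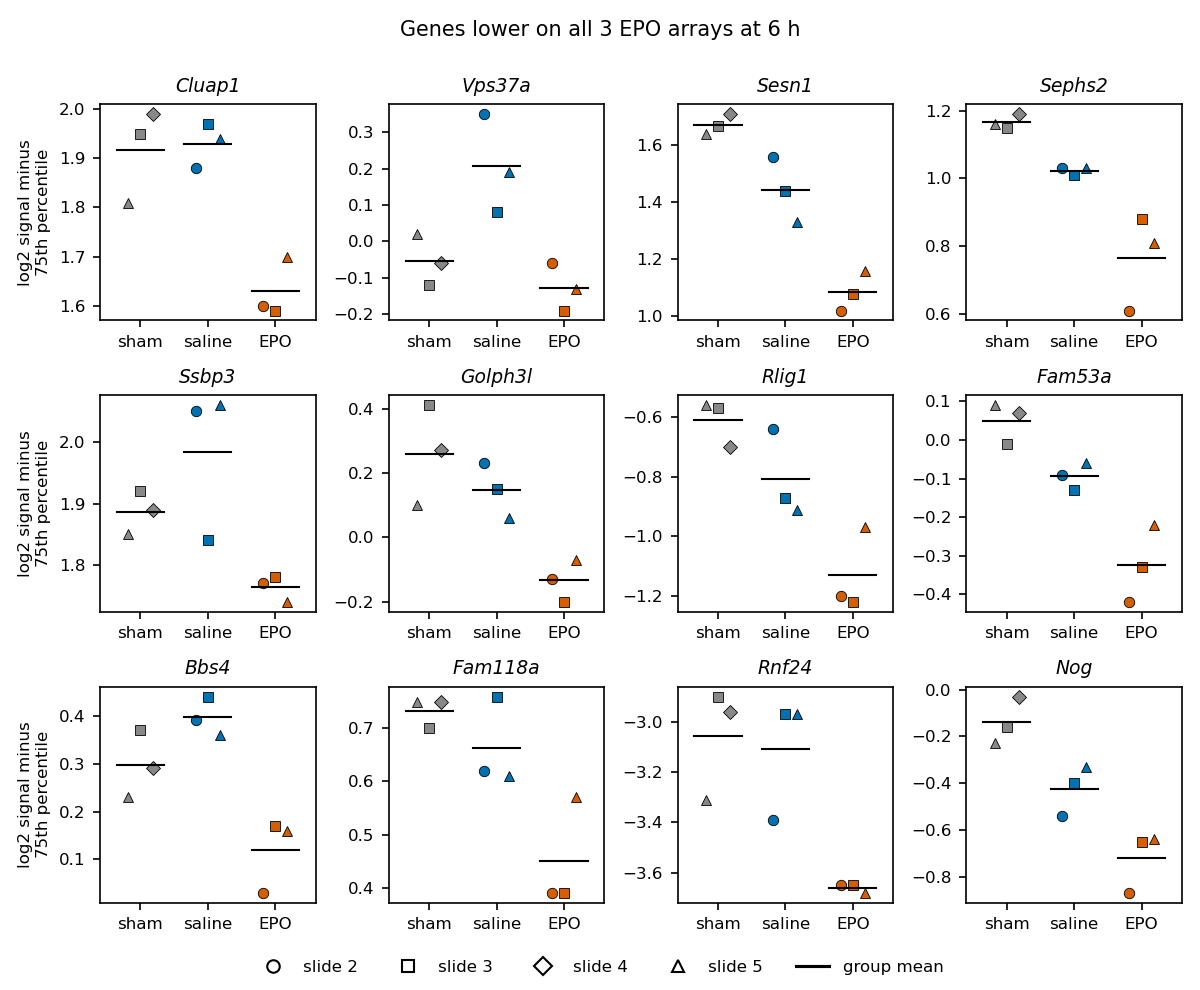
Log2 signal minus the array's 75th percentile at 6 h for the 12 genes of smallest p whose 3 EPO arrays all lay below the 3 saline arrays; points are arrays, shapes are slides, lines are group means. The differences run from -0.21 to -0.55, and sham arrays lie on either side of the saline arrays depending on the gene.

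Neuronal and energy genes differed by small amounts between EPO and saline. General neuronal markers had a median of -0.08 over 11 genes (-0.08, 0.03 and 0.00 on slides 2, 3 and 5), with Rbfox3, the nuclear antigen NeuN, at 4.29, 4.25 and 4.31 in saline and 4.04, 4.03 and 4.09 with EPO (-0.23 ± 0.10). Among interneuron markers Pvalb (-0.32 ± 0.13) and Vip (-0.27 ± 0.12) had EPO arrays all below, but differed by only -0.01 and -0.04 on slide 5. Of the 12 interneuron genes 4 were positive, among them Gad2 (0.24 ± 0.15) and the dim Lhx6 (0.61 ± 0.34). The list median was -0.02. Cortical projection neuron markers had a median of 0.07 over 11 genes, and striatal markers 0.05 over 12, with Pde10a at 0.35 ± 0.16. Excitatory synapse genes had a median of 0.00 over 34, inhibitory synapse genes -0.04 over 19 and voltage-gated channels 0.07 over 37, with Kcnc1 at -0.19 ± 0.08. All 21 oxidative phosphorylation genes had a negative difference, with a median of -0.08, 5 with EPO arrays all below and 0 at an unadjusted p under 0.05 in limma. They are bright genes, and their medians were -0.18, -0.07 and 0.02 on slides 2, 3 and 5, beside -0.15, -0.01 and 0.02 for the brightest of the 5 groups of all genes. Proteasome subunits (-0.06 over 29) and ribosomal proteins (-0.02 over 44) were likewise lowest on slide 2, at -0.18 and -0.13.

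**Figure D5:**
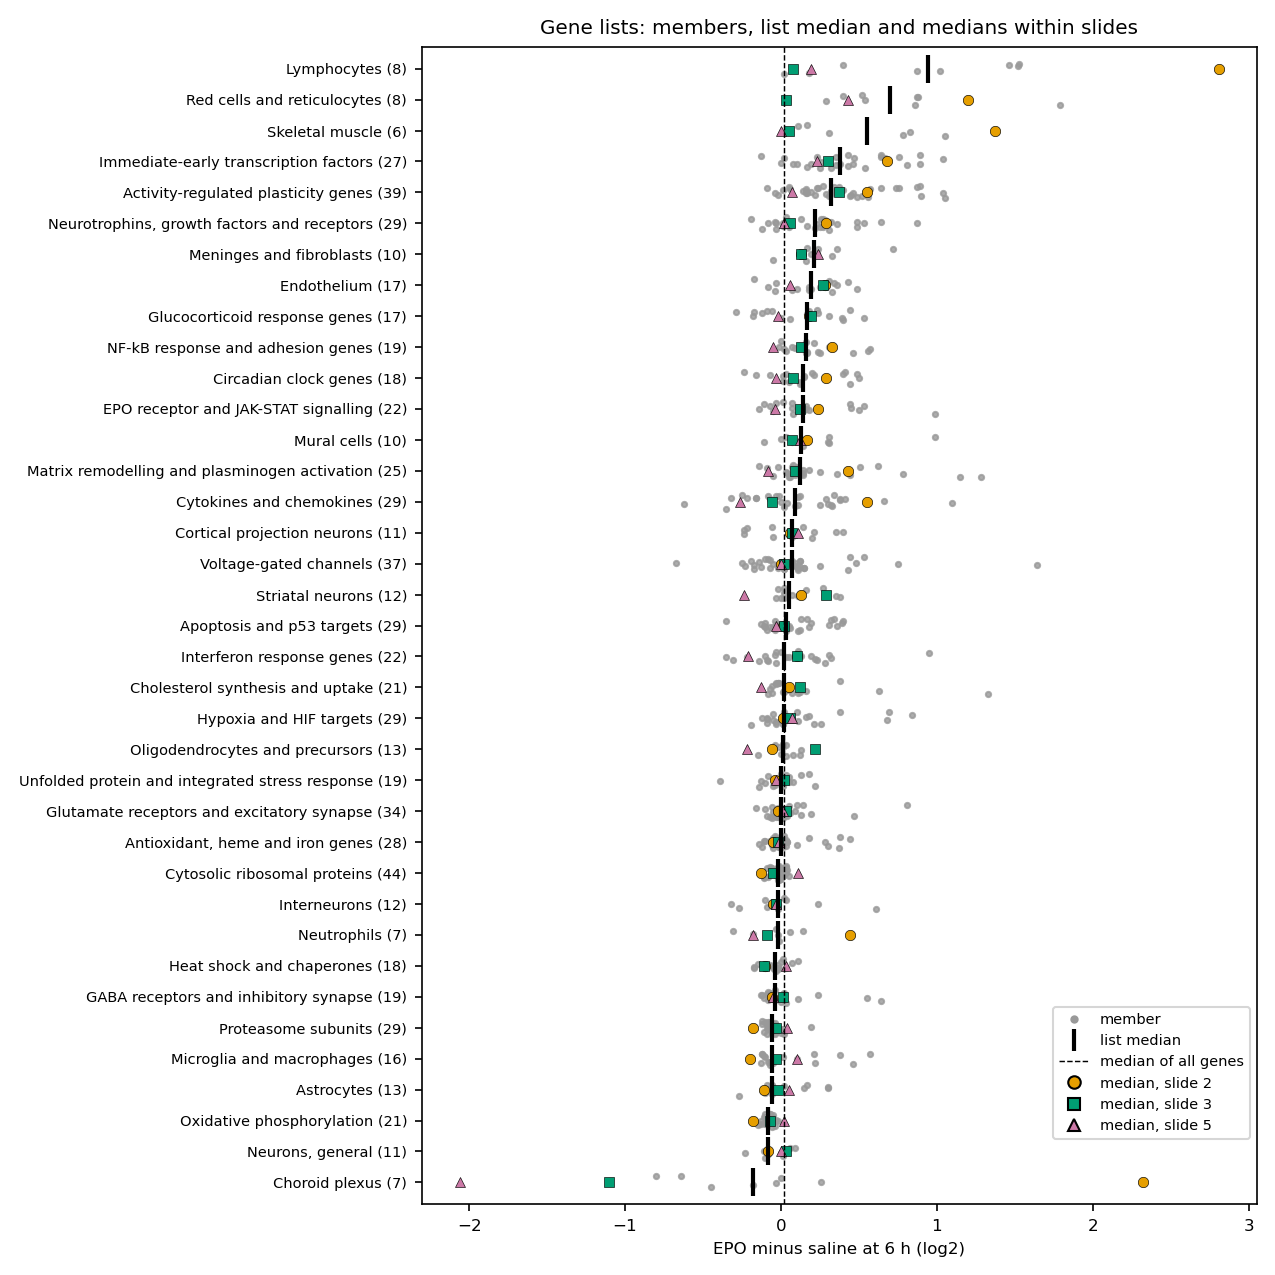
EPO minus saline at 6 h (log2) for 37 gene lists, with the number of measured genes in brackets: grey points are genes, black bars list medians, coloured shapes medians within slides, and the dashed line the median of all genes (0.02). Immediate-early (0.38) and plasticity genes (0.32) lie to the right on all 3 slides. So do red cell, endothelial, mural, meningeal and cortical projection neuron markers. Lymphocyte markers do so too, but mostly on slide 2 (2.81, beside 0.08 and 0.19), where muscle markers also have their largest median (1.37).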

How the data were processed

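Total RNA of 18 cortex samples was measured on 1-colour Agilent rat arrays (41012 probes on 43379 spots). Per the file headers and the submitters' processing notes, the authors scanned and extracted signals with Agilent Feature Extraction 9.1.1.1, whose deposited intensity values are background-subtracted and detrended within each array. The authors' deposited value table holds log2 values of the same processed intensity, averaged over spots, with no scaling between arrays. It differed from them by at most 5.33e-14. The genome build of the array is not given in the sources used here.

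Spots called outliers were left out, spots of a probe were averaged, and log2 signals were centred on each array's 75th percentile. Control spots were left out. A probe was tested if it was well above background on all 3 arrays of at least 1 group; 325 such probes with an array lost to outlier spots were dropped, which left 28634. limma 3.58.1 (R 4.3.3) fitted 6 group means to all 18 arrays with eBayes (12 residual degrees of freedom) and Benjamini-Hochberg adjustment. The fit was tested on simulated data with 200 changed probes. Symbols came from RefSeq accessions (10735 probes), symbols (5577) or synonyms (3730), and 20970 probes stayed unnamed. The members, gene lists and tests were chosen with earlier results of these data known. Since no gene passed, named were the 12 genes of smallest p in each direction without overlap between groups and well above background on all 6 arrays, up to 3 of smallest p per list, the 5 of smallest interaction p in each direction, and Epo, Epor, Jak2, Stat5a, Bdnf, Arc, Egr1, Egr2, Egr4, Fos, Npas4, Nr4a3, Hspa1b, Il1b, Ccl2 and Gfap. Outside that rule, and after their values were seen, Junb, Dusp5, Nptx2, Gadd45g, Nr4a1, Atf3, Srf, Cebpd, Pde4d, Rem2, Peli1, Cxcl2, Hspa1a, Ttr, Vwf, Jund and Angpt2 were named. Some genes picked by this rule were left out of the text. Alternatives varied the scaling, background correction, filters, samples, slide and slope class. The number of arrays, 3 per group, limits the precision.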

Additional observations from a re-analysis of the deposited data

How the results depend on the processing

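No probe passed an adjusted p under 0.05 in limma under any alternative but array weights, where 4514 did (11150 at an unadjusted p under 0.05, and 594 for the interaction with time). That weight fit stopped before it converged and gave EPO array 2 a weight of 64.3, beside 0.261 to 1.05 for the other 5 arrays. The smallest adjusted p lay between 0.141 (without EPO array 3) and 1 over the other alternatives. The 1197 probes at an unadjusted p under 0.05 became 452 with the replicate block, 1926 with the slide as a random block, 757 with the authors' values (247 higher, 510 lower), 367 without the pair on slide 2, and 563 to 3548 with 1 array left out. Same-numbered saline and EPO arrays shared a slide, but the labels give no pairing of samples, so the block stayed an alternative. These pairs correlated at -0.567, 0.271 and 0.812 in their deviations from the group means. The percentile over the tested probes, and counts without single slides, were chosen after seeing the data.

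Fosl2 (0.67 to 1.04), Egr1 (0.37 to 0.77), Egr4 (0.77 to 1.19), Arc (0.54 to 1.12), Bdnf (0.67 to 1.32), Mas1 (0.68 to 1.29) and Egr2 (0.88 to 1.17) kept their sign in all 25 settings. Each of them had all EPO arrays above all saline arrays, so leaving out arrays or a slide's pair could not turn the sign. For those settings only the size of the difference is informative. The list medians ranged from 0.22 to 0.45 for immediate-early factors, 0.22 to 0.44 for plasticity genes and 0.03 to 0.27 for growth factors. Other genes turned sign, with the cause not tested. Il1b was at -0.05 with slope class as a block and with slope as a covariate, -0.04 without the steep arrays, -0.25 without slide 2, -0.13 without saline array 1 and -0.08 without EPO array 1. Without the steep arrays Jund was at 0.00, Olig1 at 0.04, Gphn at 0.01, Aqp1 at -0.02 and Npas4 at -0.32. After quantile normalization Atf3 was at 0.03, Lum at -0.09, Mmp9 at -0.07, Epor at -0.05 and Nkg7 at -0.05, and after normexp correction Csf3r was at 0.03. With array weights Sox2 was at -0.04, Ttr at 1.19, Atf3 at 0.02, Kcnj13 at 0.09 and Npas4 at -0.20. Without slide 2, Stat5a was at -0.01, Lss at -0.05, Aqp1 at -0.05, Grik1 at -0.03, Npas4 at -0.08 and Mmp9 at -0.06. Atf3 was at 0.02 with the percentile over the tested probes, 0.01 without EPO array 1 and 0.06 without saline array 3. Aqp1 was at 0.00 without saline array 1. Without saline array 2, Cnp was at -0.01, Cldn11 at 0.00, Kcnj13 at 0.09 and Ttr at 0.37, and Ttr was at 0.20 without saline array 3 and 0.84 without EPO array 3. Hspa1a was at 0.03 without EPO array 2. The other end of the range with 1 array left out was 0.14 for Il1b, 0.42 for Aqp1, 0.16 for Cnp, 0.29 for Cldn11, -1.27 for Kcnj13, -2.97 for Ttr and -0.24 for Hspa1a. Dim genes varied most: the SD over the dimmest of 5 groups of genes was 1.39, 0.32 and 0.51 on slides 2, 3 and 5, beside 0.16, 0.15 and 0.12 in the brightest.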
